A study of Mus musculus with 4 samples.

Results

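The core circadian clock genes are the transcripts of the molecular oscillator that keeps daily time in nearly all mouse cells, pancreatic islets included. Their 10 members here were taken by symbol, Clock, Arntl, Per1, Per2, Per3, Cry1, Cry2, Nr1d1, Nr1d2 and Dbp, out of 55536 genes counted. They were measured by bulk RNA sequencing of polyadenylated RNA from isolated pancreatic islets of male C57BL/6 mice aged 8 weeks, with no genetic change or treatment of the animals named in the labels. There were 4 libraries. In 2 of them, insulin-depleted replicates 1 and 2, insulin sequences were removed with a commercial depletion panel during library preparation, and the other 2, non-depleted replicates 1 and 2, had no such step. The comparison between groups therefore asks whether clock transcripts differed between libraries with and without depletion. Count headers of the non-depleted libraries also seem to mark size selection, so an effect of depletion cannot be told apart from one of size selection. The labels call the libraries of a group biological replicates, but do not say whether they came from separate animals, so a p-value here reflects only how far these libraries scatter, which may be technical. The time of day at which islets were taken is not given in the sources used here.

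In the mouse clock, the proteins CLOCK and BMAL1 (the product of Arntl) pair up and switch on genes that carry E-boxes, among them the Per, Cry, Nr1d and Dbp genes. PER and CRY proteins accumulate and shut that pair off, which closes the main loop. A second loop runs through the nuclear receptors REV-ERB alpha and beta (Nr1d1 and Nr1d2), which repress Arntl through ROR elements, and a further one through DBP, an activator of genes that carry D-boxes. In beta cells the clock is known for setting the daily rhythm of insulin secretion.

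The short DNA stretches through which these loops are wired were searched in RefSeq promoter windows (GRCm38.p6) that reach from 250 bases before to 50 bases after a gene's start. Windows were found for 9 members, 13 windows in all, and none was matched for Per2. The stretches that hold a match are shown because they are the sequences the clock's own proteins are known to read, with the match in capitals and the rest in lower case, each read 5′ to 3′ along the gene's strand.
Per3, D-boxes TTATGTAA, chr4:151044806-151044880, minus strand: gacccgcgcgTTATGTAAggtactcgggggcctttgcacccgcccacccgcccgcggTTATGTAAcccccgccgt
Cry1, E-box CACGTG, chr10:85185073-85185150, minus strand: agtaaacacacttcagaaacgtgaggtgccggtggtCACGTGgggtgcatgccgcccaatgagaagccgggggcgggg
Per1, E-box CACGTG, chr11:69098747-69098824, plus strand: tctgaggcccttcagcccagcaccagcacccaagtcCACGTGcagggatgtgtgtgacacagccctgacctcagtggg
Nr1d1, E-box variant CACGTT read on the other strand as AACGTG, chr11:98775378-98775441, minus strand: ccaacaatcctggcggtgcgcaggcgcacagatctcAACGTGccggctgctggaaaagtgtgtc
Cry2, the same variant, chr2:92434194-92434271, minus strand: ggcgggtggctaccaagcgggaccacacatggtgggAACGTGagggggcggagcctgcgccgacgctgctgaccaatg
Arntl, ROR element core TAGGTCA, chr7:113207530-113207558, plus strand: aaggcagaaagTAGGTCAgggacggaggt

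Per3 held 2 copies of TTATGTAA, beginning 205 and 158 bases before its start, and 0.938% of all 32851 windows held at least 1 on either strand. The E-box CACGTG, present in 7.15% of windows, was found in Cry1 at 60 bases and in Per1 at 166 bases before the start. The Per1 match lies in the window of a RefSeq start inside the GENCODE span of that gene. Cry1 also held the variant CACGTT on the other strand 79 bases before its start, where it can be read in the line above as aacgtg. That variant stood in 4.68% of windows and, among the members, in Cry1, Cry2 and Nr1d1. The core TAGGTCA or TGGGTCA stood in 6.45% of windows and in Arntl alone among the members, within its first transcribed bases. The cyclic AMP response element TGACGTCA, present in 1.79% of windows, was in none of the members' windows. All motifs were searched on both strands, and none of these matches overlapped another. A match is a run of letters, not a site shown to be used in islets.

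The 4 count columns summed to between 19316173 counts, in insulin-depleted replicate 1, and 65030111 counts, in insulin-depleted replicate 2. Levels are given as CPM, counts per 1e+06 of each library's total without the insulin genes Ins1 and Ins2, because those genes took 0.195 and 0.264% of counts in insulin-depleted replicates 1 and 2, against 4.14 and 3.97% in non-depleted replicates 1 and 2. Hormone genes of the labelled tissue were abundant, with Iapp (amylin, from beta cells) at 17552 to 18445 CPM in insulin-depleted and 17396 to 18761 CPM in non-depleted libraries, and Gcg (glucagon, from alpha cells) at 11136 to 12718 and 11317 to 12812 CPM. The preparations also held acinar RNA from the surrounding digestive tissue, and in bulk RNA fewer cells of a type and less RNA per cell cannot be told apart. The 20 acinar markers summed to 18287 and 7591 CPM in insulin-depleted replicates 1 and 2, and to 18305 and 7564 CPM in the non-depleted ones, with only Ptf1a at 0 in a library. The T-cell marker Cd3e had 0 counts in all 4 libraries, which allows up to 0.156 CPM in the shallowest.

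Every clock gene was expressed in every library, and the REV-ERB genes and Clock led. Levels of different genes are compared as CPM per kilobase of annotated exon, since longer transcripts collect more counts. Nr1d2 was highest at 40.9 CPM per kb (range 37.2 to 44.6 over the 4 libraries), higher than 94.99% of the 19723 genes tested. Nr1d1 followed at 24.3 (22.5 to 26.0) and Clock at 16.7 (16.1 to 17.2), and the ranges of these 3 genes did not overlap. Cry2 (14.1, range 11.6 to 15.4), Dbp (11.1, range 10.3 to 11.9), Cry1 (10.98, range 10.2 to 11.9) and Per1 (9.86, range 9.06 to 10.6) formed a middle group in which each range overlapped the next. Per2 stood below them at 6.43 (6.05 to 6.82). Arntl (2.72, range 2.22 to 3.20) and Per3 (2.55, range 2.23 to 2.81) were lowest, overlapped each other, and lay near the middle of all genes tested, above 48.2 and 47.1% of them. Dividing by each gene's longest annotated transcript, an alternative chosen after seeing the data, gave the same order of all 10 but other levels and spacing. Means over the 4 libraries were then 23.6 for Clock, 22.5 for Cry2, 18.1 for Dbp, 12.1 for Cry1, 11.9 for Per1 and 6.46 for Per2. Levels and ratios per kilobase, and the middle group above, therefore depend on the length used.

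**Figure D1:**
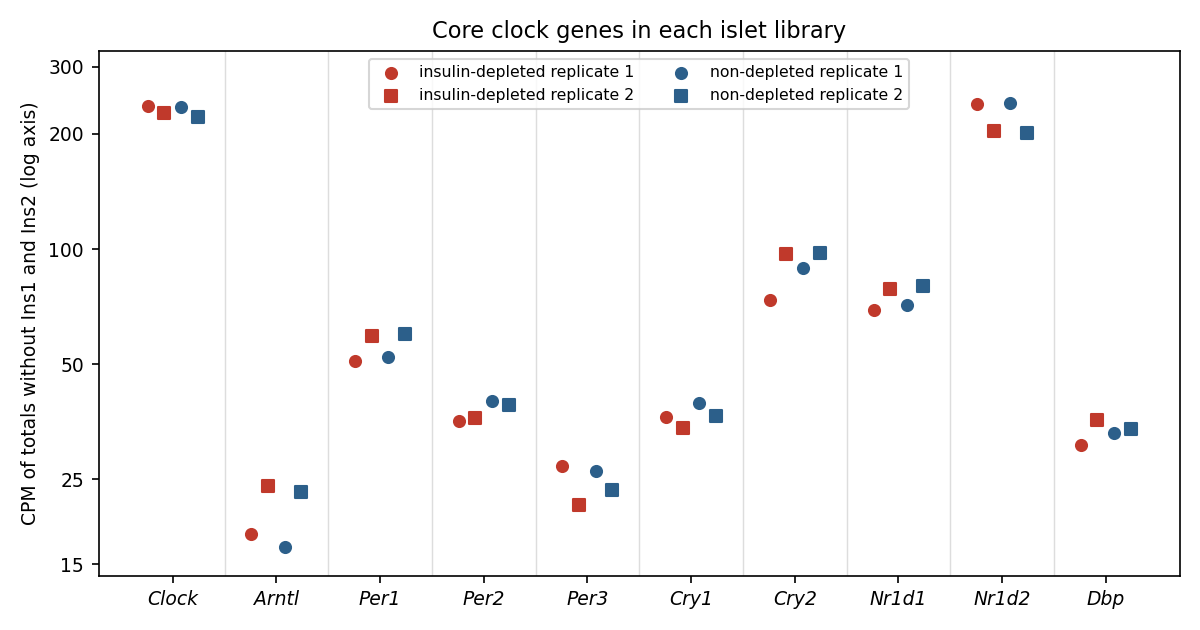
Level of each core clock gene in the 4 libraries, as CPM of totals without Ins1 and Ins2 on a log axis, with insulin-depleted libraries in red, non-depleted libraries in blue, circles for replicate 1 and squares for replicate 2. Clock and Nr1d2 lie at 201 CPM or more in every library and Arntl between 16.7 and 24.1 CPM, and for Arntl and Nr1d2 the symbols pair by shape rather than by colour.

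The activators were unequal. Clock, a DNA-binding partner of BMAL1 with acetyltransferase activity (ENSMUSG00000029238, chromosome 5, 76209868 to 76304792, minus strand, GRCm38), had 236 and 226 CPM in insulin-depleted replicates 1 and 2, against 235 and 221 CPM in non-depleted replicates 1 and 2. The values were close in all 4 libraries, and the groups overlapped. Its log2 fold change, insulin-depleted over non-depleted, was 0.01 (SE 0.08, 95% interval -0.19 to 0.22, edgeR quasi-likelihood test, adjusted p = 1.00). Arntl, which encodes BMAL1 (ENSMUSG00000055116, chromosome 7, 113207465 to 113314126, plus strand), had 18.0 and 24.1 CPM in insulin-depleted replicates 1 and 2, against 16.7 and 23.2 CPM in non-depleted replicates 1 and 2. In both groups the library numbered 2 was the higher one, and the groups overlapped, with a log2 fold change of 0.08 (SE 0.21, 95% interval -0.43 to 0.60, edgeR adjusted p = 1.00). That interval was the widest among the members. Per kilobase of exon, Clock exceeded Arntl by 7.19 and 5.15 times in insulin-depleted replicates 1 and 2, and by 7.74 and 5.23 times in non-depleted replicates 1 and 2.

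Among the repressors of the main loop, Per1 is a member that glucocorticoid and cyclic AMP signals induce directly (ENSMUSG00000020893, chromosome 11, 69095217 to 69109960, plus strand). Per1 had 51.0 and 59.2 CPM in insulin-depleted replicates 1 and 2, against 52.1 and 59.9 CPM in non-depleted replicates 1 and 2. It was higher in the library numbered 2 of each group, and its log2 fold change between groups was -0.03 (95% interval -0.30 to 0.25). Per2, a repressor whose loss disrupts the mouse rhythm (ENSMUSG00000055866, chromosome 1, 91415982 to 91459324, minus strand), had 35.4 and 36.2 CPM in insulin-depleted replicates 1 and 2, against 39.9 and 39.2 CPM in non-depleted replicates 1 and 2. Neither insulin-depleted value reached the lower non-depleted one, and the replicates of each group differed by little. The log2 fold change of Per2 was -0.15 (SE 0.09, 95% interval -0.38 to 0.08), which did not pass the test (edgeR unadjusted p = 0.158, adjusted p = 1.00). Per3, a paralog that is dispensable for the core rhythm in mice (ENSMUSG00000028957, chromosome 4, 151003652 to 151044665, minus strand), had 27.0 and 21.4 CPM in insulin-depleted replicates 1 and 2, against 26.3 and 23.4 CPM in non-depleted replicates 1 and 2. It was lower in the library numbered 2 of each group, the reverse of Per1, and its groups overlapped (log2 fold change -0.05, 95% interval -0.44 to 0.35).

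Per1 therefore outnumbered Per3, per kilobase of exon, by 3.22 and 4.71 times in insulin-depleted replicates 1 and 2, and by 3.38 and 4.37 times in non-depleted replicates 1 and 2. Its excess over Per2 was smaller, at 1.497 and 1.70 times in insulin-depleted and 1.36 and 1.59 times in non-depleted replicates 1 and 2. For neither ratio did the groups separate.

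Cry1, the stronger transcriptional repressor of the cryptochrome pair (ENSMUSG00000020038, chromosome 10, 85131700 to 85185064, minus strand), had 36.4 and 33.997 CPM in insulin-depleted replicates 1 and 2, against 39.7 and 36.7 CPM in non-depleted replicates 1 and 2. As for Per2, each insulin-depleted value was under each non-depleted value, by a log2 fold change of -0.12 (SE 0.11, 95% interval -0.39 to 0.14) that did not pass the test (edgeR unadjusted p = 0.291, adjusted p = 1.00). Cry2 (ENSMUSG00000068742, chromosome 2, 92403646 to 92434043, minus strand) had 73.5 and 97.4 CPM in insulin-depleted replicates 1 and 2, against 89.2 and 97.4 CPM in non-depleted replicates 1 and 2. The shallowest library, insulin-depleted replicate 1, stood below the other three, and its 1417 counts carry a counting error (exact Clopper-Pearson 95% half-width) of 5.24%. The log2 fold change of Cry2 was -0.13 (SE 0.14, 95% interval -0.48 to 0.22, edgeR adjusted p = 1.00), and 0.05 without that library. Per kilobase of exon, Cry2 exceeded Cry1 by 1.07 and 1.51 times in insulin-depleted replicates 1 and 2, and by 1.19 and 1.40 times in the non-depleted ones. The part that the shallow depth of this library plays in its low Cry2 value was not tested.

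The REV-ERB genes differed in level and in which libraries were high. Nr1d1 (ENSMUSG00000020889, chromosome 11, 98767932 to 98775333, minus strand) had 69.1 and 78.7 CPM in insulin-depleted replicates 1 and 2, against 71.3 and 79.9 CPM in non-depleted replicates 1 and 2. It was higher in the library numbered 2 of each group, and its log2 fold change was -0.03 (SE 0.10, 95% interval -0.28 to 0.21). Nr1d2 (ENSMUSG00000021775, chromosome 14, 18204054 to 18239127, minus strand) had 239 and 204 CPM in insulin-depleted replicates 1 and 2, against 241 and 201 CPM in non-depleted replicates 1 and 2. It was lower in the library numbered 2 of each group, and its log2 fold change was -0.0043 (SE 0.14, 95% interval -0.34 to 0.33). Per kilobase of exon, Nr1d2 exceeded Nr1d1 by 1.97 and 1.47 times in insulin-depleted replicates 1 and 2, and by 1.93 and 1.43 times in non-depleted replicates 1 and 2.

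Dbp, the output factor that binds D-boxes (ENSMUSG00000059824, chromosome 7, 45705088 to 45710203, plus strand), had 30.8 and 35.6 CPM in insulin-depleted replicates 1 and 2, against 33.0 and 33.9 CPM in non-depleted replicates 1 and 2. The non-depleted values lay between the insulin-depleted ones, and the log2 fold change was -0.01 (SE 0.11, 95% interval -0.28 to 0.26, edgeR adjusted p = 1.00). The 3 genes whose pattern over the 4 libraries was most like that of Dbp, by Euclidean distance of centred log2 CPM among 11587 genes averaging 5 CPM or more, were Tcf7l2 (0.00902), Kansl3 (0.00913) and Eef1akmt2 (0.0117). Of the other clock members, Nr1d1 (0.0927) and Per1 (0.116) were nearest to Dbp and Per3 (0.415) was farthest. With 4 libraries such closeness is a description only.

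Some of these counts can hold reads of neighbours, since the sources used here do not give whether counting used strand. Dbp shares 539 exon bases, 18.0% of its own, with Sphk2 on the opposite strand, which had 19.7 and 25.3 CPM in insulin-depleted and 20.6 and 27.1 CPM in non-depleted replicates 1 and 2. Nr1d1 shares 263 exon bases, 8.55% of its own, with the thyroid hormone receptor gene Thra on the opposite strand, at 28.5 and 36.7 CPM in insulin-depleted and 27.4 and 35.1 CPM in non-depleted replicates 1 and 2. Like Nr1d1, both neighbours were higher in the libraries numbered 2. Dbp was higher there too, but its log2 ratio of replicate 2 over 1 in non-depleted libraries, 0.04, lay within a 95% counting error of 0.095. The part of both neighbours in the counts of Dbp and Nr1d1 was not tested. Cry2 shares 295 exon bases with the antisense transcript D930015M05Rik, which had 3 and 12 counts in insulin-depleted and 20 and 25 counts in non-depleted replicates 1 and 2. Arntl shares 33 exon bases with the antisense gene Gm45355, which had 4 counts in insulin-depleted replicate 2 and 0 in the other libraries. The gene span of Per3 lies within that of Camta1 without shared exon bases, and the exons of Clock overlap none of the genes within its span.

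Between groups, 0 of the 10 members passed the test, in a comparison where 0.0101% of the 19723 genes tested did, namely Ins1 and Ins2 (edgeR, adjusted p under 0.05, both lower in insulin-depleted libraries). At an unadjusted p under 0.05 the count was also 0 of 10, and DESeq2 and limma-voom called 0 members as well. Only 0.416% of all genes reached that unadjusted level, so 0 of 10 was likely for almost any set of 10 genes. This fit used group alone, which counts differences shared by same-numbered libraries as scatter. With the replicate number added (the replicate block), 359 genes were higher and 494 lower at an unadjusted p under 0.05 (edgeR). There too 0 members passed the adjusted threshold, which 2 higher and 7 lower genes passed among the 19723 tested. The members' count at the unadjusted level in that fit is not reported here. Intervals from the fit on group alone may thus be too wide, and its p-values too high. The members' log2 fold changes ran from -0.15 (Per2) to 0.08 (Arntl) with a median of -0.03, beside a median of -0.0025 over all genes tested. Of the members, 2 lay above 0 and 8 below, and of all genes 9625 above and 10098 below. The insulin-depleted values were both under the non-depleted values for 2 members, Per2 and Cry1, where 9.33% of all genes did, and above them for 0 members, where 10.2% of all genes did.

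**Figure D2:**
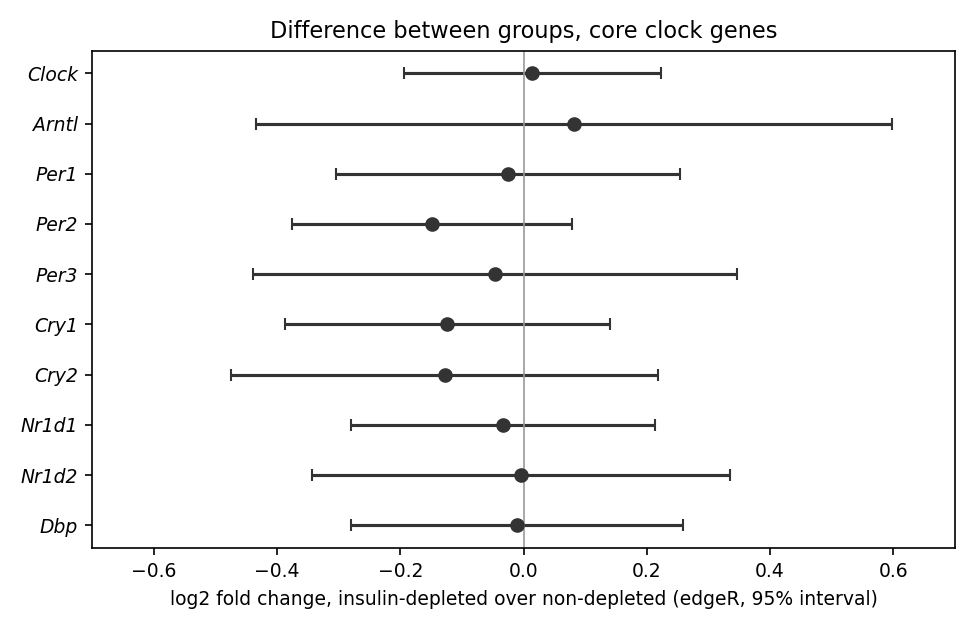
Log2 fold change of each core clock gene, insulin-depleted over non-depleted, from the edgeR fit over all genes, with points for the estimate and bars for the 95% interval. All 10 intervals include 0, and the widest is that of Arntl, from -0.43 to 0.60.

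The balance of the arms was read from differences of mean log2 CPM within a library. These are not divided by length, so only their change from library to library is compared. The PER-CRY arm minus the activators Clock and Arntl was -0.64 and -0.77 in insulin-depleted replicates 1 and 2, and -0.46 and -0.65 in non-depleted replicates 1 and 2. Group means were -0.70 ± 0.10 and -0.56 ± 0.13 (SD, n = 2 each), a difference of -0.14 that did not separate the groups (exact two-sided permutation p = 0.667, where 2 against 2 libraries cannot go below 0.333). The REV-ERB arm minus the activators was 0.98 and 0.78 in insulin-depleted and 1.06 and 0.82 in non-depleted replicates 1 and 2, a difference of -0.07 between group means (exact two-sided permutation p = 0.667). The difference of Dbp minus Arntl, a pair with opposite phases in many mouse tissues, was 0.77 and 0.56 in insulin-depleted and 0.98 and 0.55 in non-depleted replicates 1 and 2, a difference of -0.10 between group means (exact two-sided permutation p = 1.00). Between libraries with the same number, insulin-depleted minus non-depleted, the PER-CRY balance differed by -0.17 at number 1 and -0.12 at number 2, and the REV-ERB balance by -0.09 and -0.05. The insulin-depleted library was thus the lower one at both numbers for these balances, while for Dbp minus Arntl the differences were -0.21 and 0.02. The permutation test does not use the numbers, and these differences were not tested. All 3 balances were lower in the library numbered 2 than in the library numbered 1 of the same group. All 3 contain Arntl, so this is one observation rather than 3. In the REV-ERB and Dbp balances, leaving out insulin-depleted replicate 2 turned the group difference to 0.03 and 0.0077, and leaving out non-depleted replicate 1 to 0.05 and 0.12.

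**Figure D3:**
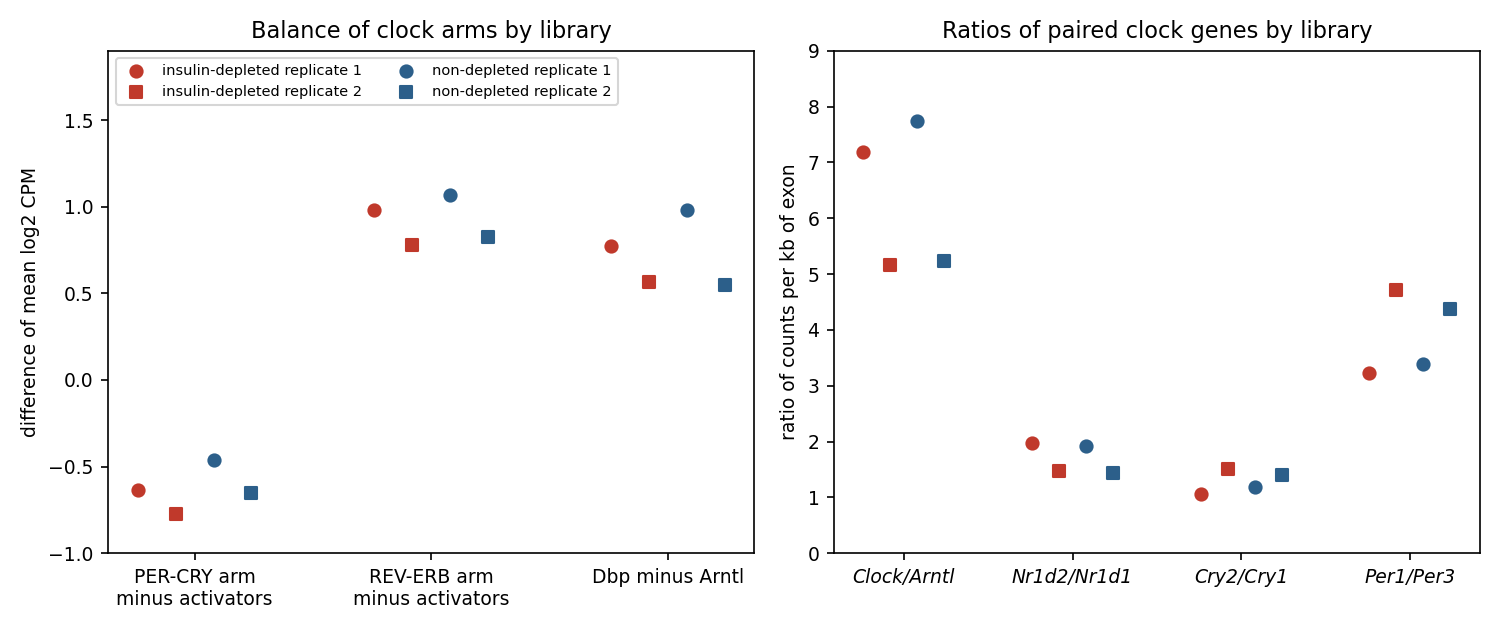
Balance of clock arms as differences of mean log2 CPM (left) and ratios of paired clock genes as counts per kilobase of exon (right) in the 4 libraries, with insulin-depleted libraries in red, non-depleted libraries in blue, circles for replicate 1 and squares for replicate 2. For every balance on the left the square lies below the circle of the same colour, and Clock over Arntl is above 7 in both libraries numbered 1 and near 5 in both libraries numbered 2.

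The libraries of each group differed from each other in some clock genes by more than the groups did. The log2 ratio of replicate 2 over replicate 1 was 0.42 in insulin-depleted and 0.48 in non-depleted libraries for Arntl, against 95% counting errors of 0.17 and 0.13, or 0.24 and 0.18 if each fragment added 2 counts. Nr1d2 went the other way, at -0.23 in insulin-depleted and -0.26 in non-depleted libraries, against counting errors of 0.05 and 0.04. The ratios were 0.21 and 0.20 for Per1, 0.19 and 0.17 for Nr1d1, -0.06 and -0.09 for Clock and -0.10 and -0.11 for Cry1, in insulin-depleted and non-depleted libraries. For Cry2 (0.41 and 0.13), Dbp (0.21 and 0.04) and Per3 (-0.34 and -0.17) the ratio was larger in insulin-depleted than in non-depleted libraries, and for Per2 it was 0.03 and -0.03. With 1 library per number in each group these differences have no replicate test.

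Such ratios were common among all genes. The sign was shared by both groups for 9 of 10 members, all except Per2, and for 71.7% of genes tested. Beyond 0.5 on the log2 scale in the same direction in both groups there were 0 of 10 members, where 10.4% of genes tested lay there (5.55% above and 4.85% below), and beyond 1 there were also 0, where 3.14% of genes lay (1.58% above and 1.56% below). Beyond 0.3 there was 1 member, Arntl, where 20.1% of genes lay there (11.6% above and 8.58% below). Arntl was on the upper side. The median size of the ratio was 0.21 in insulin-depleted and 0.15 in non-depleted libraries over the members, and 0.23 and 0.20 over all genes tested. Over tested genes averaging 5 CPM or more, a level that every member reached, it was 0.15 and 0.14. The shares of genes given above cover all genes tested, low-count genes included, and were not taken over this set.

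**Figure D4:**
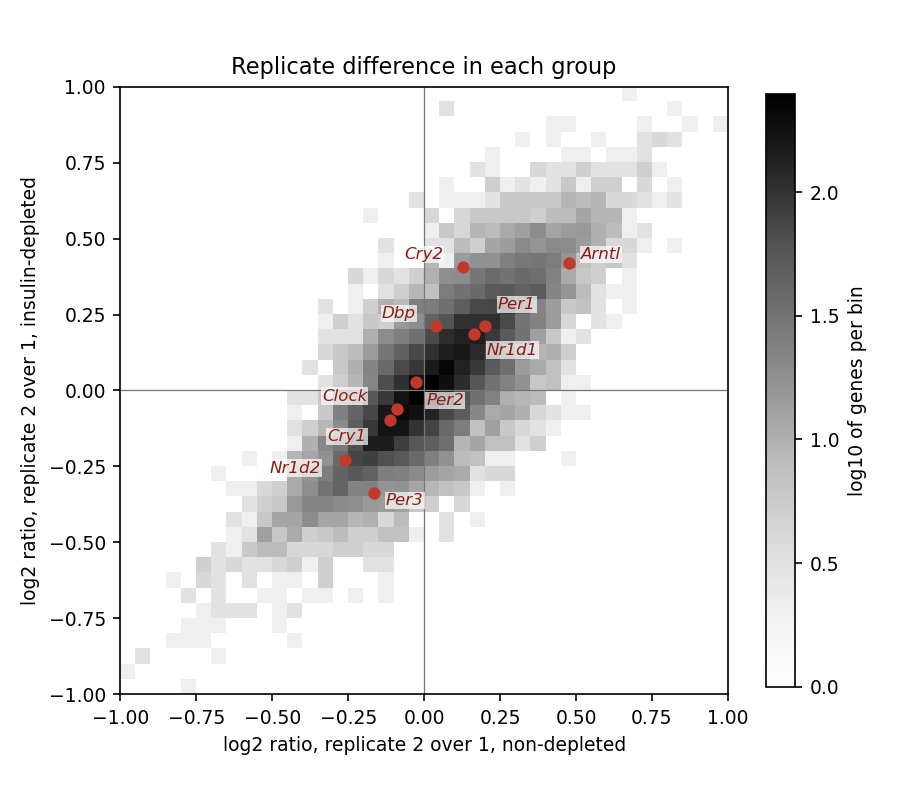
Log2 ratio of replicate 2 over replicate 1 in insulin-depleted libraries (vertical axis) against that in non-depleted libraries (horizontal axis), with core clock genes as labelled red points and all tested genes averaging 5 CPM or more as grey bins shaded by the log10 of genes per bin. Arntl lies at 0.48 and 0.42 and Nr1d2 at -0.26 and -0.23 (horizontal, then vertical value), both inside the grey cloud.

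Marker genes of other cell types differed along the same split. Of 19 acinar markers tested, 17 had a ratio below -0.5 in both groups, with medians of -1.25 in insulin-depleted and -1.31 in non-depleted libraries. The beta-cell list had medians of 0.17 and 0.26, with Glp1r, the GLP-1 receptor gene, the 1 gene of 9 above 0.5 (0.52 and 0.57). The alpha-cell list had medians of -0.12 and -0.15 with no gene of 6 beyond 0.5 in both groups. In the ductal list Krt19 and Muc1 lay below -0.5, and in the immune list Adgre1, Cd74 and C1qb lay above 0.5, while no stromal, endothelial or delta- and gamma-cell marker did in both groups. Whether these cell contents play a part in the ratios of Arntl and Nr1d2 was not tested. With acinar markers taken out of the library totals, the count of members beyond 0.5 was still 0.

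Other genes of the clock pathway gave 0 calls between groups among 28 tested (edgeR, 0 also at an unadjusted p under 0.05), with 15 above 0, 13 below and a median log2 fold change of 0.0044. Of the activator paralogs, Npas2, which can stand in for Clock, had 12.6 ± 1.70 CPM in insulin-depleted and 12.9 ± 0.291 CPM in non-depleted libraries (SD, n = 2 each). Arntl2, the paralog of Arntl, had 3.92 ± 0.329 CPM in insulin-depleted and 4.10 ± 0.670 CPM in non-depleted libraries. Among the ROR receptors, which activate Arntl through the elements that REV-ERB proteins occupy, Rora had 316 ± 1.82 CPM in insulin-depleted and 318 ± 18.1 CPM in non-depleted libraries, and Rorb had 0.681 ± 0.0832 and 0.560 ± 0.0346 CPM in the same groups. Per kilobase of exon Rora stood at 1.08 and 0.941 times Nr1d1 in insulin-depleted and 1.09 and 0.900 times in non-depleted replicates 1 and 2.

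The D-box factors are relatives of Dbp or, in the case of Nfil3, its opponent. Tef had 78.3 ± 8.34 CPM in insulin-depleted and 75.5 ± 0.357 CPM in non-depleted libraries. Hlf had 16.4 and 24.8 CPM in insulin-depleted replicates 1 and 2, against 21.4 and 24.1 CPM in non-depleted replicates 1 and 2. The lowest library for Hlf was insulin-depleted replicate 1, as it was for the members Per1, Per2, Cry2, Nr1d1 and Dbp. Among additional repressors, Bhlhe40, which competes for E-boxes, had 237 ± 11.01 CPM in insulin-depleted and 232 ± 6.71 CPM in non-depleted libraries, and Ciart, which blocks CLOCK and BMAL1, had 12.8 ± 1.07 and 11.7 ± 1.09 CPM. Of 10 genes for turnover of clock proteins, 7 lay above 0 and 3 below. The most counted, Csnk1a1, a casein kinase, had a log2 fold change of 0.01 (SE 0.08), and the least counted, Usp2, a deubiquitinase, stood at 4.11 ± 0.670 CPM in insulin-depleted and 4.91 ± 0.620 CPM in non-depleted libraries (log2 fold change -0.25, SE 0.22). Of 5 outputs and cofactors, Nono, a partner of PER proteins, had 226 ± 1.65 CPM in insulin-depleted and 228 ± 6.65 CPM in non-depleted libraries, and Wee1, a cell cycle kinase under clock control, had 19.6 ± 1.21 and 19.4 ± 1.19 CPM.

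Signals that act on Per1 were listed as well. Of 8 genes induced by glucocorticoids, 4 lay above 0 and 4 below between groups, with a median log2 fold change of -0.01, and replicate medians of 0.08 in insulin-depleted and 0.03 in non-depleted libraries. Mt2, a metallothionein, had 1107 ± 11.1 CPM in insulin-depleted and 1140 ± 3.02 CPM in non-depleted libraries, and Zbtb16 had 1.10 ± 0.0950 and 0.863 ± 0.00396 CPM. Of 12 immediate early genes, 7 lay above 0 and 5 below, with a median of 0.05 and replicate medians of -0.11 in both groups. Junb, part of the AP-1 factor, had 167 and 193 CPM in insulin-depleted and 168 and 197 CPM in non-depleted replicates 1 and 2, higher in the library numbered 2 as Per1 was. Nr4a3, an orphan nuclear receptor, had 4.67 and 3.52 CPM in insulin-depleted and 3.22 and 2.92 CPM in non-depleted replicates 1 and 2. None of these 20 genes passed the test (edgeR, 0 also at an unadjusted p under 0.05).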

How the data were processed

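The authors deposited whole-number gene counts, not normalized, in a single table. For the non-depleted libraries the deposited values carry the unit name expected counts in the records kept here, for the sole reason that their headers contain the word size. They were whole already and served as plain counts. The headers with that word seem to mark a size-selected preparation and those of insulin-depleted libraries do not, so size selection and depletion cannot be told apart. A header without a depletion tag was assigned to the non-depleted library whose replicate number it ends in. The submitters' processing notes list Cutadapt 4.8, STAR 2.7.11b and the builds GRCm38 and mm10 but no roles. Which program counted reads, and whether by strand, is not given in the sources used here. Even values made up 80.0 to 84.0% of counts from 2 to 9, a pattern that counting each mate of a pair would give. The counting errors given for libraries and replicate ratios, which cover counting alone, may therefore be too narrow. The edgeR intervals also cover scatter between the libraries of a group, including differences shared by same-numbered libraries.

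All 55536 identifiers matched GENCODE M21, which gave coordinates and exon lengths. The members, lists and tests were chosen with earlier results of these data known. All genes were fitted with edgeR 4.0.16 in R 4.3.3 (filterByExpr, TMM, robust glmQLFit on group alone, glmQLFTest, Benjamini-Hochberg over 19723 genes, threshold 0.05). That step was run on simulated counts that, unlike these data, held no difference shared by same-numbered libraries, so that run does not cover this feature. Standard errors were derived from each estimate and its test statistic. DESeq2 1.42.0 and limma-voom (limma 3.58.1) were alternatives. Log2 CPM used a prior count of 0.5. Balances were tested by exact permutation over libraries. Outside the members, a gene was named if it overlapped a member, passed the test, had a replicate ratio beyond 0.5 in both groups or had the most or fewest counts of its list, as were the 3 genes nearest to Dbp. Acinar markers were given as a list, and Iapp, Gcg, Cd3e and Hlf by library. Gm129, listed as an older name of Ciart, matched no row. Some values that this naming rule selects are not reported here.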

Additional observations from a re-analysis of the deposited data

How the results depend on the processing

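No clock member was called under any of the 11 alternatives (another tool or scaling, no filter, counts divided by 2, the replicate block or 1 library left out), and the lowest adjusted p was 0.947, for Cry2 with the replicate block. Of 110 member values, 94 kept their direction. Outside left-out libraries, Nr1d2 turned to 4.6e-05 with totals without Ins1 and Ins2 and Dbp to 0.012 with limma-voom. With 1 library left out, so that the lone sample is assumed to vary like the others, log2 fold changes ran from -0.040 to 0.074 for Clock, -0.14 to 0.33 for Arntl, -0.13 to 0.068 for Per1, -0.23 to 0.13 for Per3, -0.34 to 0.047 for Cry2, -0.12 to 0.045 for Nr1d1, -0.14 to 0.15 for Nr1d2 and -0.11 to 0.078 for Dbp. Per2 (-0.17 to -0.12) and Cry1 (-0.19 to -0.05) stayed below 0. The group difference of the PER-CRY balance stayed below 0 (-0.24 to -0.050 with a library left out), and those of the REV-ERB and Dbp balances ran from -0.19 to 0.055 and from -0.31 to 0.12 with a library left out. The cause was not tested. With the replicate block, 9 genes in place of 2 were called over all genes, none of them a member. Same-numbered libraries deviated together (Pearson's r = 0.844 across 11597 genes, which are not independent), but the labels do not say that a number marks a shared animal. The count of members past the fold between replicates was 1 beyond 0.3 and 0 under the other settings. The lowest member count was 347, for Arntl in insulin-depleted replicate 1, with a counting error (exact 95% half-width) of 10.7%.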
